A study of Homo sapiens with 12 samples.

Results

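K562 is a chronic myeloid leukaemia cell line with erythroid and megakaryocytic features. Here 6 of the 12 RNA-seq libraries of the study were compared: 3 of cells in which a long non-coding RNA (lncRNA) was targeted with an siRNA plus a GapmeR, followed by tumour necrosis factor alpha (TNF), and 3 of mock-transfected cells given TNF in the same way. The first group is called TNFSG and the second TNF, as in the labels. TNFSG cells received Si623 with Gap01, TNF cells received the control oligonucleotides SiCt with GapCt, and both were then kept with TNF at 20 ng/mL for 6 hours. The other 6 libraries, used beside them, are the targeted transfection (SG, n = 3) and the mock transfection (control, n = 3) without TNF. The siRNA and the GapmeR were given together in every targeted library, so their effects cannot be told apart. All cells are of 1 line, and the siRNA and the GapmeR are 1 design each. The replicates are labelled biological without saying whether cultures were separate. The p-values rest on the spread between libraries within groups, taken over all 12 libraries. Expression is in FPKM, fragments scaled to locus length and library size. Of 38272 loci in the deposited table, 29237 carry a gene name, and 12668 of these had a mean of at least 5 FPKM over the 6 libraries and were compared on the log2(FPKM + 1) scale, which understates changes of low loci. At the edge of this rule ANKRD36C lay just inside with a mean of 5.00008 FPKM and POU4F1 just outside with 4.99991 FPKM.

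An siRNA guides the Argonaute protein to RNAs that pair with it, and an RNA that pairs only with the guide's seed, its bases 2 to 8, can also be lowered, most often through a match in its 3′ UTR. A GapmeR is an antisense oligonucleotide with a central DNA stretch, and the nuclease RNase H cuts RNA that pairs with that stretch. TNF acts through its receptors on the transcription factor NF-kB, which induces the host gene of miR-146a, a microRNA known for lowering the adaptors IRAK1 and TRAF6 upstream of NF-kB.

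The relative depths of the 12 libraries, estimated where values step in whole reads, lay between 0.788 and 1.21, and total depth is unknown. Between 25772 and 27228 loci reached 1 FPKM in the TNFSG libraries and between 24077 and 24893 in the TNF libraries, so these groups did not overlap. The SG libraries, with 25614 to 26398 such loci, also lay above the control libraries with 24055 to 25071. Erythroid markers of K562 summed to 3428 to 6841 FPKM in TNFSG and 3550 to 8208 FPKM in TNF, and none of the 10 was at 0 throughout. Sums of other markers ranged over 15.7 to 48.3 FPKM in TNF and 29.7 to 46.4 in TNFSG for T cells (3 of 4 markers in the table), 2.58 to 5.27 and 6.38 to 6.76 for B cells (1 of 4), 9.36 to 44.6 and 15.3 to 34.0 for monocytes (2 of 4), 55.1 to 1178 and 65.2 to 443.8 for fibroblasts (3 of 5), 54.3 to 74.4 and 57.0 to 71.7 for epithelial cells (3 of 5) and 29.6 to 43.0 and 43.7 to 51.4 for endothelial cells (2 of 4). No marker in the table was at 0 in all 12 libraries, and the part of other cells in the results was not tested.

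The study's title names the lncRNA after PPTG1, read here as PTTG1, a gene on chromosome 5 with the miR-146a host gene MIR3142HG downstream of it. The locus that the table names MIR146A had 28.1, 25.6 and 21.2 FPKM in TNF, against 7.77, 4.51 and 4.03 FPKM in TNFSG. Every TNFSG library lay below every TNF library. The mean was 25 ± 3.48 FPKM (SD, n = 3) in TNF and 5.44 ± 2.03 FPKM in TNFSG. The log2 change was -2.05 ± 0.26 (SE throughout for such changes), and its adjusted p by limma was 0.0128. It no longer passed in 5 of the 6 fits that dropped 1 of these libraries (limma adjusted p up to 0.0664), at a pseudocount of 0.1 (0.0665), or when TNF and TNFSG alone were fitted (0.141). Without TNF the locus was near 0, at 0.36, 0.569 and 0.159 FPKM in control and 0, 0.057 and 0.063 FPKM in SG. GENCODE release 29 (GRCh38) places MIR146A at chr5:160485352-160485450 on the plus strand. A 50-base read of a long host transcript and one of the microRNA's precursor are counted alike at this locus, and the mature miRNA was not measured. The mature sequence from RefSeq (GRCh38.p14) is shown with its seed in capitals, because the microRNA is made from the RNA that fell.
hsa-miR-146a-5p: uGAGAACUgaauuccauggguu

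Loci around it did not pass in either direction. PTTG1, the securin gene, had 204 ± 5.83 FPKM in TNF and 196 ± 7.18 FPKM in TNFSG. SLU7, a splicing factor gene next to it, had 21.7 ± 0.84 and 23.0 ± 2.45 FPKM, and PWWP2A, a chromatin reader, had 12.5 ± 0.714 and 11.2 ± 0.516 FPKM. FABP6, a bile acid binding protein gene, varied from 9.1 to 34.8 FPKM over these libraries. Of 17 tested genes known or proposed as miR-146a targets, 0 passed in either direction by limma. Of the 17, 1 reached an unadjusted p under 0.05, beside 1616 of 12668 loci over all. The median change was 0.014, beside 0.044 over all loci tested. UHRF1 had 26.7 FPKM in TNF and 23.1 in TNFSG, and BRCA1 had 15.3 and 16.7.

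Across all tested loci, 40 rose (0.316%) and 67 fell (0.529%) in TNFSG against TNF at a limma adjusted p under 0.05, which is 0.845% of 12668. An unadjusted p under 0.05 was reached by 1616 loci. The median size of the 107 called changes was 0.53 on the log2 scale. Outside loci of a few reads, the largest were at MIR146A (-2.05), RP11-335O4.3 (-1.29) and SHOC2 (-1.23) among the falls and UNC13A (1.77) and IQSEC3 (1.70) among the rises. Among the 107, 86 are protein-coding by their GENCODE name, 55 of those that fell and 31 of those that rose. The balance depended on scaling: 33 rose and 98 fell with median-ratio scaling, and 24 rose and 108 fell with quantile normalization. Leaving out 1 library gave between 10 and 81 calls, and with only TNF and TNFSG in the fit 1 locus rose and 3 fell.

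**Figure D1:**
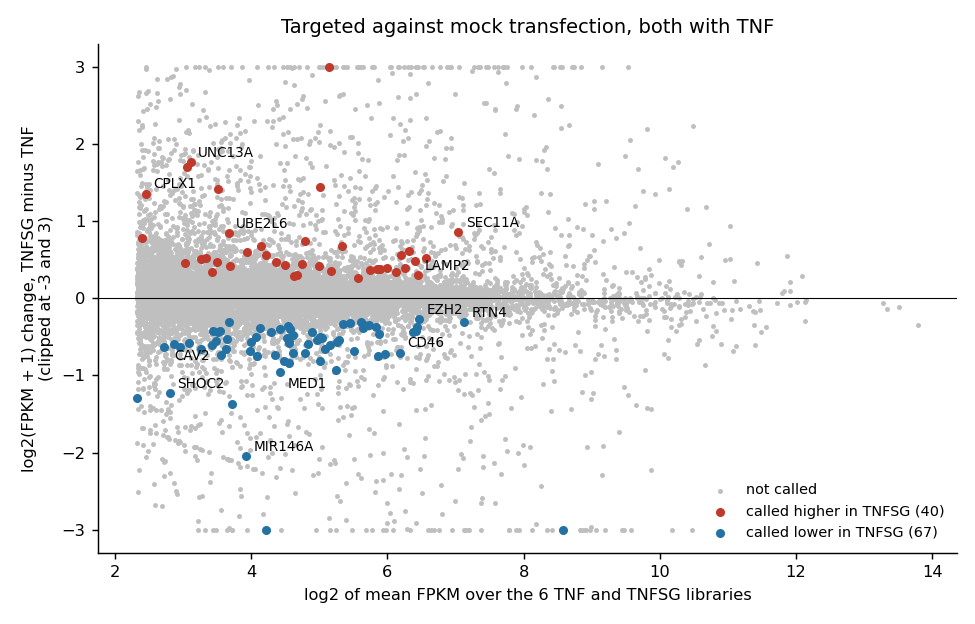
Change between TNFSG and TNF on the log2(FPKM + 1) scale (vertical, clipped at -3 and 3) against the log2 of the mean FPKM over the 6 libraries (horizontal), 1 point per tested locus. Red points are the 40 loci that rose and blue points the 67 that fell, and most of both lie within 1 log2 unit of 0. Some grey points, loci that did not pass, have changes as large or larger.

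The calls of 6 loci held whichever of the 6 libraries was left out: MED1, the locus of DNAJC25 and GNG10, CAV2, CD46, SEC11A and the few-read locus AC012322.1 described further on. MED1, the Mediator subunit that binds nuclear receptors, had 28.5, 30.6 and 27.1 FPKM in TNF and 14.7, 14.1 and 14 FPKM in TNFSG. Its TNFSG libraries were nearly alike and far below the TNF libraries. It fell by 50.3% in mean FPKM, or -0.96 ± 0.06 in log2 units, at a limma adjusted p of 0.000941 (0.0506 with these 2 groups fitted alone). The locus shared by DNAJC25, a J-domain protein gene, and GNG10, which encodes a G protein gamma subunit, had 47.4, 50.5 and 51.8 FPKM in TNF and 24.9, 26.3 and 25.9 FPKM in TNFSG. Its change was -0.93 ± 0.07 (limma adjusted p 0.00141), and reads of the genes at this locus cannot be separated. CAV2, a caveolin of plasma membrane pits, had 14.4, 15.5 and 14.8 FPKM in TNF and 8.50, 9.03 and 8.22 FPKM in TNFSG, a change of -0.73 ± 0.06 (limma adjusted p 0.00194). CD46, a complement regulator on the cell surface, had 91.0, 91.2 and 88.9 FPKM in TNF and 59.6, 51.9 and 53.7 FPKM in TNFSG, a change of -0.71 ± 0.06 (limma adjusted p 0.00194). SEC11A, a catalytic subunit of the signal peptidase, moved the other way, with 99.6, 85.2 and 96.2 FPKM in TNF and 163, 176 and 170.5 FPKM in TNFSG. It rose by 81.6% in mean FPKM, a change of 0.86 ± 0.07 (limma adjusted p 0.00194). With only the 2 groups in the fit the calls of CAV2, CD46 and SEC11A were lost (limma adjusted p 0.105, 0.109 and 0.105), and that of DNAJC25 and GNG10 held (0.0468).

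**Figure D2:**
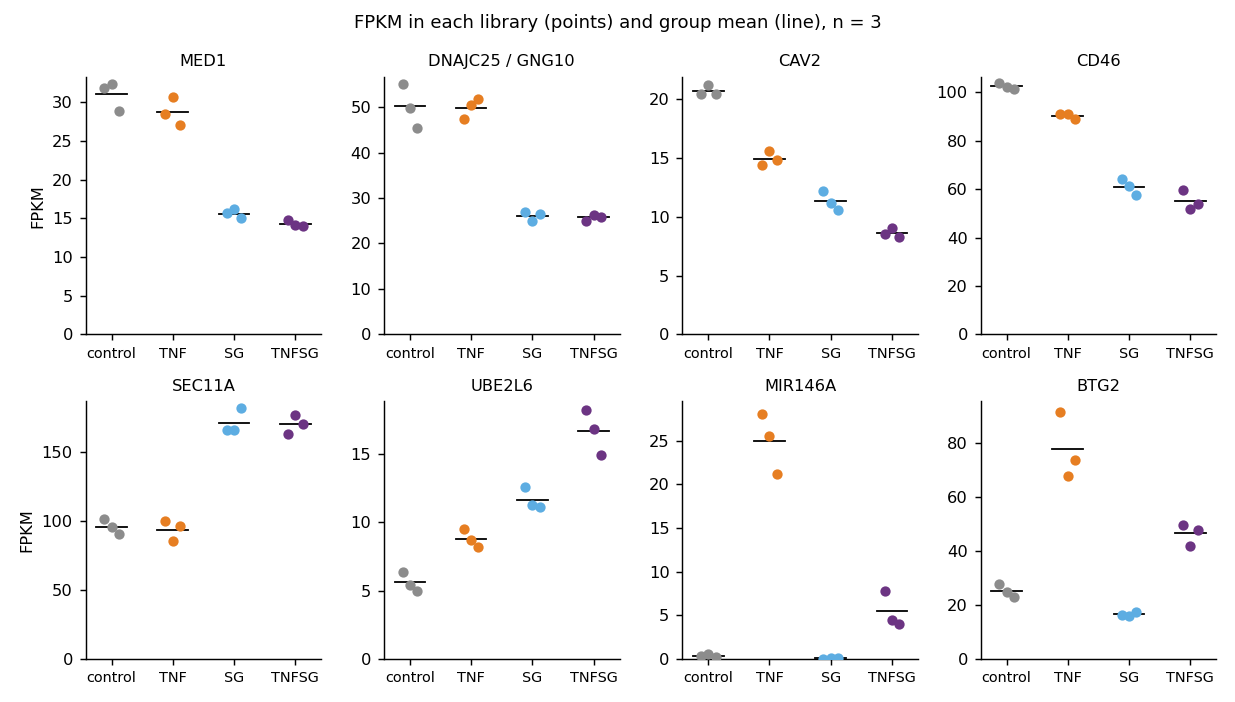
FPKM (vertical, from 0) of 8 loci in each of the 12 libraries, with 3 points per group and a line at the group mean. MED1, DNAJC25 / GNG10, CAV2 and CD46 are lower and SEC11A and UBE2L6 higher in both targeted groups, while MIR146A and BTG2 are lower in TNFSG than in TNF and have lower levels in both groups without TNF.

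Few partners of these genes passed. The gene lists here and below were written with earlier results of these data known, so their counts are descriptions and no tests. Over all tested loci 0.316% rose and 0.529% fell, and 1616 of 12668 had an unadjusted p under 0.05. Mediator links transcription factors to RNA polymerase II, and of its 32 tested subunit genes 0 rose and 1 fell, MED1. The median change of the list was 0.005, beside 0.044 over all loci. Next to MED1 the largest falls in value were MED17 (12.2 ± 0.76 FPKM in TNF, 10.3 ± 0.788 in TNFSG) and MED18 (18.4 ± 4.45 and 15.9 ± 2.45 FPKM), and neither passed. MED24, which sits beside MED1 in the complex, had 33.7 ± 1.19 FPKM in TNF and 37.8 ± 0.914 in TNFSG (limma adjusted p 0.278). The largest difference upwards was at MED21, a locus averaging 6.08 reads, with 17.3, 43.4 and 10.6 FPKM in TNF and 36.5, 42.3 and 25.1 in TNFSG, so these libraries overlap.

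The signal peptidase cuts the leader from proteins that enter the endoplasmic reticulum through the translocon. Of 24 tested genes of this machinery, SEC11A rose, SSR3 fell and the median change was 0.042. SEC11C, the other catalytic subunit, had 50.3, 67.6 and 68.8 FPKM in TNF and 70.6, 82.5 and 71.5 FPKM in TNFSG, every value above the TNF libraries, without passing (limma adjusted p 0.416). The accessory subunits SPCS1, SPCS2 and SPCS3 had 59.4, 37.5 and 37.4 FPKM in TNF and 61.1, 36.9 and 38.6 FPKM in TNFSG. SSR3, the gamma subunit of the translocon-associated protein (TRAP) complex, declined from 56.7 ± 2.46 FPKM in TNF to 44.4 ± 1.28 FPKM in TNFSG (change -0.35 ± 0.06, limma adjusted p 0.0326, lost in 6 of 6 fits without a library, up to 0.154). Its partners SSR2 and SSR4 had 122 and 186 FPKM in TNF and 137 and 184 FPKM in TNFSG.

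SHOC2, a scaffold that activates RAF downstream of RAS, had 11.2, 10.0 and 9.32 FPKM in TNF and 4.27, 3.43 and 3.63 FPKM in TNFSG. All TNFSG libraries were below 5 FPKM and all TNF libraries above 9, and SHOC2 fell by 62.9% (change -1.23 ± 0.15, limma adjusted p 0.0128). PEA15, which holds ERK in the cytoplasm, fell from 30.7 ± 1.94 to 18.4 ± 1.57 FPKM, and PTPN12, a tyrosine phosphatase, from 41.9 ± 1.11 to 26.2 ± 2.93 FPKM. Of 29 tested genes of RAS and MAP kinase signalling these 3 fell (0.529% of all loci did) and 0 rose, and the list's median change was -0.008, beside 0.044 over all. STAT5B, a transcription factor downstream of cytokine receptors and of BCR-ABL, fell from 25.7 ± 0.761 to 15.1 ± 2.25 FPKM, and APPL1, an endosomal adaptor, from 8.18 ± 0.676 to 4.94 ± 0.213 FPKM. When 1 library was dropped, SHOC2 and APPL1 no longer passed in 4 of 6 fits, PEA15 in 3 and PTPN12 and STAT5B in 5 (limma adjusted p up to 0.103).

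CAST, the inhibitor of calpain proteases, had 26.9, 27.6 and 31.7 FPKM in TNF and 15.7, 14.9 and 17.1 FPKM in TNFSG. It fell by 44.8% (change -0.82 ± 0.09, limma adjusted p 0.0112). The call was lost without TNFSG replicate 2 (0.0541) and with only TNF and TNFSG in the fit (0.12). CAST and CAV2 are the 2 of 9 tested genes of the caveolin and calpain list that fell (0.529% of all loci did), and 0 rose. This list, like the others, was written with earlier results of these data known, so its share is no test. BCL2L11, which encodes the pro-apoptotic protein BIM, had 27.6, 30.0 and 27.1 FPKM in TNF and 18.9, 18.8 and 18.5 FPKM in TNFSG. It was the 1 of 26 tested apoptosis genes that passed, beside 0.845% of all loci. Its change was -0.56 ± 0.06 (limma adjusted p 0.0112). The call was lost without TNFSG replicate 2 (0.0541) or 3 (0.0544) and with only TNF and TNFSG in the fit (0.12). BID, another BH3 protein, had 19.0 ± 0.959 FPKM in TNF and 15.8 ± 1.65 in TNFSG (limma adjusted p 0.271).

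Ribosome biogenesis starts in the nucleolus with a large assembly on the ribosomal RNA precursor, and 2 of its components fell. HEATR1 had 35.6, 44.8 and 44.2 FPKM in TNF and 24.7, 22.8 and 22.1 FPKM in TNFSG (change -0.81 ± 0.10, limma adjusted p 0.0128). UTP6 had 53.2, 56.2 and 59.1 FPKM in TNF and 35.1, 35.9 and 32.7 FPKM in TNFSG (change -0.69 ± 0.08, limma adjusted p 0.0112). In each, the TNFSG libraries lay close together below the TNF libraries. Of 49 tested genes of the list 2 fell and 0 rose, beside 0.529% and 0.316% of all loci. Of the 49, 31 were below 0, beside 5228 of 12668 over all. The list's median change was -0.032, beside 0.044 over all. The HEATR1 call was lost in 4 of the 6 fits without a library (limma adjusted p up to 0.0671) and the UTP6 call without TNF replicate 3 (0.0534) or TNFSG replicate 3 (0.0544).

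Of 50 tested G2/M and mitosis genes 1 fell, 0 rose, 38 had a change below 0 and the median was -0.092, beside 5228 of 12668 loci below 0 over all. In 13 of the 50 every TNFSG library lay below every TNF library, beside 7.48% of all loci tested. The member that fell was ANLN, the scaffold of the cleavage furrow, with 40.9, 46.7 and 42.6 FPKM in TNF and 28.3, 30.4 and 25.8 FPKM in TNFSG (change -0.61 ± 0.08, limma adjusted p 0.0128, lost in 3 of 6 fits without a library, up to 0.0604). NUF2, a kinetochore protein, had 34.6 ± 2.42 FPKM in TNF and 26.6 ± 2.12 in TNFSG, and CCNB2, cyclin B2, had 84.2 ± 4.78 and 69.4 ± 0.24 FPKM. Neither passed (limma adjusted p 0.0642 and 0.0774), and both passed with median-ratio scaling (0.0376 and 0.0363). Among 48 tested G1/S and DNA replication genes E2F3, a transcription factor of S phase entry, fell from 46.5 ± 4.44 to 31.5 ± 2.17 FPKM (limma adjusted p 0.028, lost in 5 of 6 fits, up to 0.121), and the list's median change was -0.004. CCND1, the G1 cyclin D1, had 418, 360 and 284 FPKM in TNF and 192, 126 and 122 FPKM in TNFSG. Its groups did not overlap but varied widely, and the change of -1.28 ± 0.30 did not pass (limma adjusted p 0.113). EZH2, the methyltransferase of Polycomb complex 2, fell from 96.6 ± 0.778 to 80.1 ± 3.01 FPKM (limma adjusted p 0.029, lost in 5 of 6 fits, up to 0.13).

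ATAD3B, a mitochondrial membrane ATPase gene, had 76.6, 71.0 and 71.4 FPKM in TNF and 41.1, 49.4 and 39.4 FPKM in TNFSG (change -0.75 ± 0.10, limma adjusted p 0.0168, lost in 4 of 6 fits, up to 0.0784). Its close copy ATAD3A had 49.2 ± 4.95 and 43.8 ± 0.47 FPKM and did not pass, and reads of these paralogs may be divided between them. MFN1, which fuses mitochondrial outer membranes, fell from 9.0 ± 0.437 to 5.64 ± 0.131 FPKM, while MFN2 had 58.9 ± 3.88 and 54.6 ± 0.52 FPKM. GMPR, a purine salvage enzyme gene, fell from 30.5 ± 3.11 to 16.6 ± 1.63 FPKM, and FBXO28, an F-box protein gene, from 21.5 ± 2.97 to 12.4 ± 1.09 FPKM. MFN1, GMPR and FBXO28 no longer passed in 4, 4 and 5 of the 6 fits with a library dropped (limma adjusted p up to 0.111). The non-coding RP11-335O4.3 had 6.58, 8.03 and 7.78 FPKM in TNF and 2.71, 3.61 and 1.41 in TNFSG (change -1.29 ± 0.22, limma adjusted p 0.033, lost in 6 of 6 fits, up to 0.132). Further falls of smaller size included TDG, a DNA glycosylase gene, from 39.0 to 27.0 FPKM, UBE2K, a ubiquitin-conjugating enzyme gene, from 45.8 to 30.7 FPKM, and CERS2, a ceramide synthase gene, from 97.6 to 75.0 FPKM. Each of these 3 calls was lost in 4 of 6 fits (limma adjusted p up to 0.0722).

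UNC13A, CPLX1, SYP and IQSEC3 were among the 15 largest rises. They are named by that rule and form no list of their own. UNC13A, which primes synaptic vesicles, had 3.50, 3.34 and 3.20 FPKM in TNF and 16.9, 12.4 and 12.5 FPKM in TNFSG. CPLX1, a complexin that controls vesicle fusion, had 2.10, 2.64 and 3.24 FPKM in TNF and 7.65, 7.46 and 9.97 FPKM in TNFSG. SYP, synaptophysin of the vesicle membrane, had 4.42, 3.22 and 3.23 FPKM in TNF and 6.71, 6.89 and 7.01 FPKM in TNFSG. All 3 were low with the mock transfection and did not overlap with the targeted one, and the group means differed 4.17-fold, 3.14-fold and 1.90-fold. IQSEC3, an exchange factor of ARF proteins at synapses, had 4.41, 3.84 and 2.08 FPKM in TNF and 11.8, 12.2 and 15.5 FPKM in TNFSG. The limma adjusted p was 0.0466 for UNC13A, 0.0413 for CPLX1, 0.0498 for SYP and 0.0466 for IQSEC3, and each call was lost in 5 or 6 of the 6 fits without a library (up to 0.193). MANEAL, a mannosidase-like protein gene, rose from 5.69 ± 1.34 to 17.2 ± 5.55 FPKM (limma adjusted p 0.0315, lost in 5 of 6 fits, up to 0.115).

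The number of loci at 1 FPKM or more, which was higher in every TNFSG library than in every TNF library, moved with these rises from low levels, and its part in them was not tested.

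**Figure D3:**
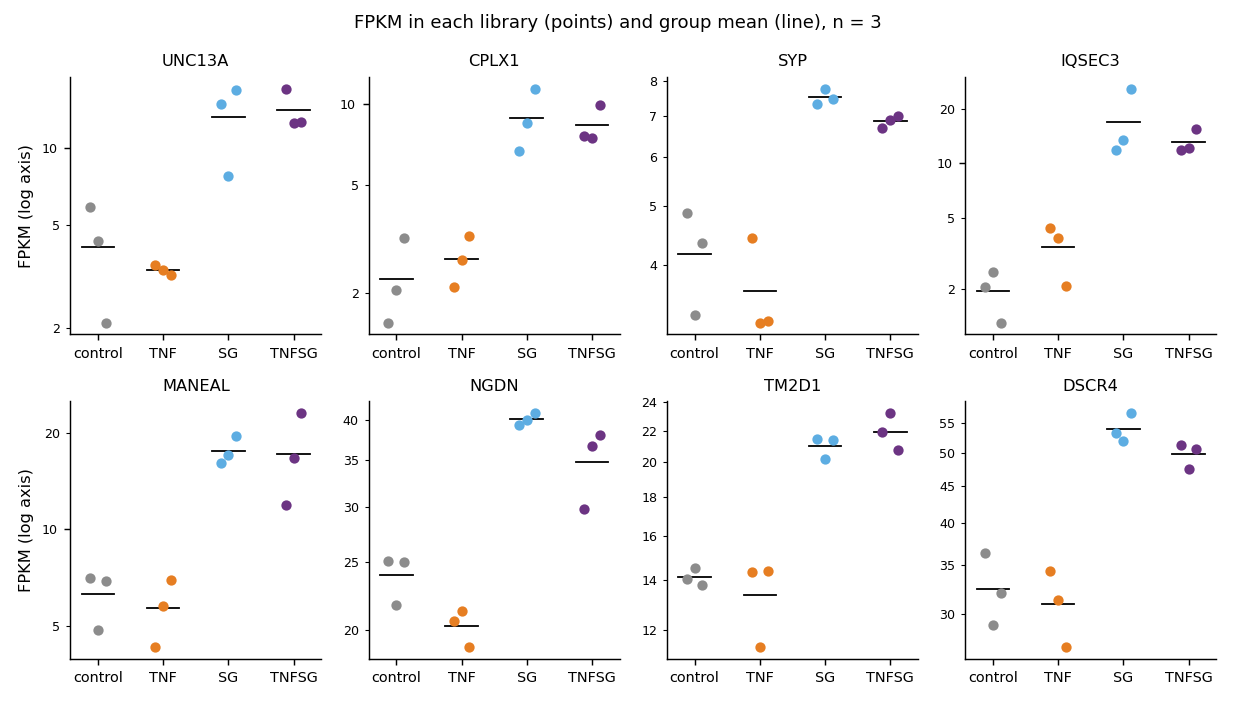
FPKM (vertical, log axes with a range of their own in each panel) of 8 of the 15 largest rises in each of the 12 libraries, with 3 points per group and a line at the group mean. In each of the 8 genes every targeted library (SG and TNFSG) lies above every mock library (control and TNF).

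UBE2L6, the ubiquitin-like conjugating enzyme that attaches ISG15, had 9.47, 8.73 and 8.20 FPKM in TNF and 18.2, 16.8 and 14.9 FPKM in TNFSG. It rose by 89.2% (change 0.85 ± 0.10, limma adjusted p 0.0128), and the call was lost without TNF replicate 2 (0.0503), TNF replicate 3 (0.0534) or TNFSG replicate 2 (0.0609). It was the 1 of 26 tested interferon-stimulated genes that passed, beside 0.845% of all loci. Of these 26, 20 had a change above 0 with a median of 0.215, beside 7440 of 12668 loci above 0 and a median of 0.044 over all. In 7 of the 26 every TNFSG library lay above every TNF library, beside 11.2% of all loci. Of 18 tested genes of HLA class I and peptide loading 0 passed by limma. Of the 18, 6 reached an unadjusted p under 0.05, beside 1616 of 12668 loci over all. Higher without overlap were 7 of the 18, beside 11.2% of all loci, and the median was 0.228. PSME1, a proteasome activator subunit, had 70.9 ± 2.4 FPKM in TNF and 84.6 ± 1.35 in TNFSG (limma adjusted p 0.148), and the locus holding TAP2, a peptide transporter, had 11.5 ± 1.00 and 15.7 ± 1.09 FPKM (0.201). Sensors of foreign nucleic acid gave 0 calls among 12 tested by limma. Of the 12, 3 had an unadjusted p under 0.05 (1616 of 12668 loci over all did), and the median was 0.161. EIF2AK2, the double-stranded RNA kinase PKR, had 14.9, 14.2 and 13.4 FPKM in TNF and 18.1, 17.6 and 17.7 FPKM in TNFSG without passing (limma adjusted p 0.102). OAS3 had 5.78 ± 1.47 and 9.20 ± 1.19 FPKM, and IKBKE, a kinase of the interferon pathway, had 20.5 ± 3.75 and 28.3 ± 2.48 FPKM.

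Targets of NF-kB, which TNF induces, gave 0 calls among 55 tested by limma in TNFSG against TNF. Of the 55, 5 had an unadjusted p under 0.05 (1616 of 12668 loci over all did), and the median was 0.091. CXCL1, a neutrophil chemokine, had 34.1, 30.6 and 32.8 FPKM in TNF and 50.5, 42.7 and 59.0 FPKM in TNFSG. It was higher in every TNFSG library without passing (change 0.62 ± 0.15, limma adjusted p 0.113). SQSTM1 had 262 ± 20.9 and 213 ± 11.3 FPKM and IRF2 12.4 ± 0.919 and 15.6 ± 1.53 FPKM. Of 25 tested TNF receptor signalling genes 0 passed by limma and 2 had an unadjusted p under 0.05. TNFRSF1B, the second TNF receptor, had 21.5 ± 1.14 FPKM in TNF and 27.4 ± 0.276 in TNFSG (limma adjusted p 0.102). Of 20 tested immediate early genes BTG2 alone passed (0.845% of all loci did). Of the 20, 7 were lower without overlap (7.48% of all loci were), and the median was -0.084, beside 0.044 over all. BTG2, an antiproliferative regulator of mRNA decay, had 91.7, 67.9 and 73.9 FPKM in TNF and 49.8, 41.8 and 47.9 FPKM in TNFSG, a change of -0.72 ± 0.12 (limma adjusted p 0.029, lost in 5 of 6 fits, up to 0.112). KLF6 had 37.2 ± 3.53 and 27.6 ± 1.3 FPKM and did not pass.

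Histone genes gave 2 rises among 16 tested (0.316% of all loci rose) and 0 falls, with a median of 0.094. HIST1H3H had 13.6, 15.9 and 15.1 FPKM in TNF and 21.1, 23.1 and 23.0 FPKM in TNFSG, and HIST1H2BJ had 51.9, 51.6 and 49.4 FPKM and 68.1, 69.1 and 62.7 FPKM. Each gene's groups did not overlap. Their limma adjusted p values were 0.021 and 0.0226, above 0.05 in 5 and 6 of the 6 fits with a library dropped (up to 0.103). Histone genes are near-identical copies, so reads may be divided among them. Other rises were NGDN, a nucleolar protein gene, from 20.3 ± 1.23 to 34.8 ± 4.38 FPKM, DCTPP1, which clears dCTP, from 62.6 ± 3.72 to 96.6 ± 11.1 FPKM, and DUT, which clears dUTP, from 70.7 ± 3.96 to 99.6 ± 2.78 FPKM. TM2D1 rose from 13.4 ± 1.71 to 22 ± 1.23 FPKM, STX12, an endosomal syntaxin gene, from 12 ± 0.862 to 18.6 ± 0.88 FPKM, and DSCR4 from 30.9 ± 3.73 to 49.8 ± 2.00 FPKM. NEK9, a mitotic kinase gene, rose from 9.26 ± 0.365 to 13.3 ± 0.409 FPKM. The TM2D1 and NEK9 calls were lost without TNFSG replicate 2 or 3, and those of NGDN, DCTPP1, DUT, STX12 and DSCR4 in 4 or 5 of the 6 such fits (limma adjusted p up to 0.103). The non-coding RP11-109P14.9 rose from 17.0 ± 4.56 to 47.6 ± 9.22 FPKM, a call lost in 3 of 6 fits (up to 0.0816), and the locus of GBAS, MRPS17 and ZNF713 rose from 59.4 ± 5.64 to 88.2 ± 8.52 FPKM, a call lost in 6 of 6 (up to 0.172). Rises of the lysosomal genes LAMP2 (78.1 to 96.2 FPKM) and CTSA (22.8 to 28.4 FPKM) and of the purine salvage gene HPRT1 (54.8 to 72.1 FPKM) passed as deposited and were lost with median-ratio scaling and with quantile normalization.

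The remaining lists held few or no calls. Of 39 tested erythroid genes 0 passed by limma and 3 had an unadjusted p under 0.05, beside 1616 of 12668 loci over all. GATA1, the erythroid master regulator, had 119 ± 4.18 FPKM in TNF and 106 ± 3.09 in TNFSG. FTL, a ferritin chain gene, had 1418 ± 60.5 and 1122 ± 28.8 FPKM. The lists of RNA silencing (21 tested), heat shock (13), integrated stress response (23), chaperones of the endoplasmic reticulum (20) and cholesterol synthesis (24) also gave 0 calls, with 5, 0, 3, 3 and 2 members at an unadjusted p under 0.05 and medians of 0.034, -0.015, -0.034, -0.0037 and 0.009. DROSHA, the nuclease that starts microRNA processing, had 22.6 ± 0.394 and 25.6 ± 0.588 FPKM, and TNRC6A, a partner of Argonaute, had 16 ± 0.83 and 20.4 ± 0.969 FPKM. Neither passed. In the list of stress and growth arrest genes BTG2 was the 1 of 19 that passed, beside 0.845% of all loci.

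SG against control, the same transfection without TNF, uses the other 6 libraries and shares none with TNFSG against TNF, although the fit gave both the same error per locus. There 52 loci rose (0.41% of 12668) and 80 fell (0.632%), which is 1.04% in all. All SG libraries lay above all control libraries at 12.1% of loci and below them at 7.09%. Of the 107 loci that passed with TNF, 104 had the same sign without TNF (97.2%, beside 69.4% of all tested loci). In 99 of them every SG library lay on the same side of every control library as TNFSG did of TNF (92.5%, beside 16.6% of all tested), and 72 passed there too in the same direction (67.3%). Over the 103 of these loci with values above 0 in all 12 libraries, the changes with and without TNF had a Pearson correlation of 0.933 and a Spearman correlation of 0.915. These are correlations over genes that the first comparison chose, and genes are not independent replicates. Over all 107 loci that passed, the correlations were 0.543 and 0.862. Over all 12668 loci they were 0.139 and 0.367, and over the 11488 above 0 in all 12 libraries they were 0.228 and 0.444. MED1 had 31.8, 32.3 and 28.9 FPKM in control and 15.7, 16.2 and 15 FPKM in SG, so SG lay below control without overlap here too. SEC11A had 101, 95.7 and 90.7 FPKM in control and 166, 166 and 182 FPKM in SG. BTG2, whose level was higher with TNF, had 27.7, 24.7 and 22.8 FPKM in control and 16.4, 16 and 17.5 FPKM in SG, without passing there (limma adjusted p 0.0681). DIS3, an exosome nuclease gene, rose from 22.4 to 31.0 FPKM with TNF and had a change of 0.12 without it (limma adjusted p 0.541), and the interaction was not called. Without TNF, list medians were 0.346 for interferon-stimulated genes, 0.2255 for HLA class I and peptide loading and 0.197 for nucleic acid sensors. They were -0.125 for G2/M and mitosis and -0.101 for ribosome biogenesis, beside 0.05 over all loci. Stress and growth arrest genes differed, with -0.0235 with TNF and 0.099 without.

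**Figure D4:**
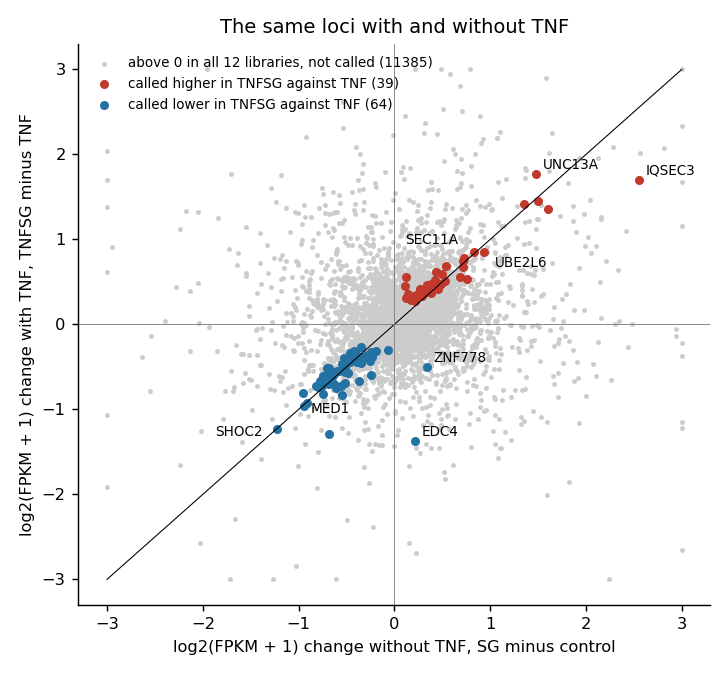
Change of each locus without TNF (horizontal, SG minus control) and with TNF (vertical, TNFSG minus TNF) on the log2(FPKM + 1) scale, for loci above 0 in all 12 libraries, with the line of equal change. The loci that passed with TNF (red higher, blue lower) lie near the line in both directions, and ZNF778 and EDC4 lie in the opposite quadrant.

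The difference between the effects of targeting with and without TNF, the interaction, passed at 3 loci (0.0237% of 12668), 1 higher (0.00789%) and 2 lower (0.0158%), and 352 loci reached an unadjusted p under 0.05. ZNF778, a zinc finger protein gene, was the one of these 3 with values in the usual range. It had 18.9, 20.3 and 20.7 FPKM in TNF and 14.3, 12.9 and 14.2 FPKM in TNFSG, but 13.5, 14.9 and 14.2 FPKM in control and 18.6, 19.2 and 16.9 FPKM in SG. The groups did not overlap in either comparison and the direction was opposite, with changes of -0.50 with TNF and 0.34 without (interaction adjusted p by limma 0.0416). The interaction no longer passed in 11 of the 12 fits that dropped a library, the exception being SG replicate 3 (limma adjusted p 0.0358 to 0.2003), and the change with TNF did not pass in 4 of 6 (up to 0.0782).

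A few loci that passed rest on few reads and their values step by whole reads. AC012322.1 had 612, 685 and 1005 FPKM in TNF, from 3, 3 and 4 recovered reads, and was listed at 0 in all TNFSG libraries, while SG had 1042, 502 and 2515 FPKM. The second locus named ATPIF1 had 32.0, 71.5 and 7.87 FPKM in TNF and was listed at 0 in all TNFSG and SG libraries, with a mean of 1.83 reads over the 12 libraries. FTX, a non-coding gene of the X inactivation centre, was listed at 0 at this locus in all TNF and control libraries and had 111, 58.6 and 41.8 FPKM in TNFSG, a mean of 1.58 reads. The locus named EDC4 had 16.2, 18.1 and 24.3 FPKM in TNF and 7.61, 6.60 and 6.27 FPKM in TNFSG from a mean of 4.92 reads, while the main locus, named EDC4 with NRN1L, had 39.9 ± 1.71 and 37.7 ± 1.65 FPKM and did not pass. SDCBPP3, which passed in the interaction, had 2038, 760 and 2230 FPKM in TNF and 3647, 1665 and 1582 FPKM in TNFSG and was listed at 0 in SG, with a mean of 5.58 reads. C16orf96 and RP11-875O11.2, next by p in the interaction (limma adjusted p 0.0597 and 0.172), averaged 3.08 and 3.0 reads.

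The 3′ UTRs of the loci that passed were then read for words of 7 bases, in 1 GENCODE release 29 transcript (the principal one, the longest UTR where several) for each of 7985 single-name protein-coding loci. Of these 48 had fallen and 29 had risen in TNFSG against TNF. Median UTR length was 1955 bases among those that fell, 930 among those that rose and 1147 over all, so any word is met more often in the first. For each of 14796 words found in at least 100 loci, the mean change of loci with the word was compared with that of loci without it, after a trend on UTR length, GC content and level was removed. The lowest differences belonged to TCGACAT (-0.15), TGGGTCG (-0.13) and CGTATCA (-0.12), each in 102 to 110 loci. Without TNF they were 0.015, -0.0053 and -0.074. The highest belonged to CGAATGA (0.17), ATTACGA (0.16) and TTCGGGC (0.16), with 0.0017, 0.015 and 0.079 without TNF, and 0 of the 48 lowered loci held any of the 3 words of lowest difference.

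Words common among the lowered loci were looked at after these values were seen, so what follows is a description with no test. Ranked by the excess of their share in lowered loci over that in all loci, divided by the binomial spread of such a share, CGTTCTA came first, in 6 of the 48 lowered loci (12.5%) and 1.54% of all 7985. GAAGTTA (17 lowered, 35.4%, and 11.3% of all), AAGCACA (19, 39.6% and 13.99%) and AAATGAA (30, 62.5% and 29.3%) were also more frequent in lowered loci. The words ranked 2 and 3 in that order, ACTTTAA and CACTTTA, overlap each other and are followed here. ACTTTAA was in 25 of the 48 lowered loci (52.1%), in 2 of the 29 raised loci (6.90%) and in 19.3% of all 7985. CACTTTA was in 21 lowered (43.8%), 2 raised and 14.9% of all. Their union of 8 bases, CACTTTAA, was in 12 lowered (25%), 0 raised and 5.64% of all. The 8-base windows of 5 lowered genes are shown with the word in capitals, on the transcript strand of GRCh38, because they are where these genes share sequence.
BTG2: tttatgatgttCACTTTAAaaacaacaaaa
UTP6: gttttgagacaCACTTTAAttttatgttaa
PTPN12: gagctagaagaCACTTTAAgttatactgga
E2F3: gatgacaccagCACTTTAAactctttgtgt
CERS2: cgctatagggtCACTTTAAgctctggggaa

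They lie at chr1:203309377-203309406, chr17:31863215-31863244, chr7:77639287-77639316, chr6:20492244-20492273 and chr1:150966057-150966086 in that order, each in the last exon. Of the falls described above, MED1, CAST, HEATR1, STAT5B and ATAD3B held neither 7-base word in this UTR, SHOC2 held ACTTTAA once, CAV2 held CACTTTA once and BTG2 held both. The same 8 bases also occur in MIR3142HG, the miR-146a host RNA, at bases 640 to 647 of its 2301-base transcript in exon 2 of 2. That window is chr5:160485754-160485783 on the plus strand, and it is shown because this RNA is made at the locus described first. Other non-coding RNAs were not searched for the word.
MIR3142HG: ttgggagaaatCACTTTAAtgaagcttgag

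No sequence of the siRNA or the GapmeR was used here, so whether either pairs with these windows was not tested. No mature human microRNA in the RefSeq table has the seed UAAAGUG that would pair with CACTTTA. The word does overlap the site of the miR-17 family, 8 mature miRNAs with the seed AAAGUGC, which pairs with GCACTTT. Whether any microRNA acts through these windows was not tested.

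The words, like some others given below, went with a shift of many loci, including loci that did not pass. With the trend removed, the median change in TNFSG against TNF was -0.066 for the 450 loci with CACTTTAA, -0.048 for the 741 with CACTTTA but not the 8 bases, -0.028 for the 867 with ACTTTAA but not CACTTTA, -0.00012 for the 1051 with just the core ACTTTA and -0.0088 for the 4876 without it. SG against control gave -0.099, -0.063, -0.051, -0.0086 and 0.012 in the same order. Among loci that did not pass, the first 3 classes had -0.060, -0.047 and -0.023. The 1141 loci with GCACTTT but not CACTTTA had -0.009 with TNF and -0.021 without. By the mean difference between loci with and without a word, GGTTTTT had -0.051 with TNF and -0.036 without TNF. ACTTTAT had -0.053 and -0.035, and TTACATT had -0.051 and -0.028. On this measure CACTTTA had -0.061 and -0.060, and ACTTTAA had -0.045 and -0.078. TTAGTTA, in 890 loci, had -0.046 with TNF and -0.084 without, and TGTTTTA had -0.011 and -0.056. The shift was therefore not particular to the words followed here, with or without TNF. Whether the same loci carry these words was not tested.

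By library, the median deviation of the CACTTTAA loci from loci without the core was 0.042, 0.073 and 0.033 in TNF and -0.054, -0.057 and -0.084 in TNFSG. In control it was 0.10, 0.092 and 0.029, and in SG -0.071, -0.020 and -0.10. These deviations start from each locus's mean over the 12 libraries, and no trend was removed from them. Median UTR length was 3308 bases for the CACTTTAA loci and 667 for loci without the core. The word was picked from loci lowered in TNFSG against TNF, so the difference between those libraries is no test of it. Every mock library was above 0 and every targeted library below it, with and without TNF. The means were 0.049 ± 0.021 (SD, n = 3) in TNF and -0.065 ± 0.017 in TNFSG. The loci with CACTTTA but not the 8 bases had 0.034 ± 0.020 in TNF and -0.044 ± 0.011 in TNFSG, also without overlap. Those with ACTTTAA but not CACTTTA had 0.0088 ± 0.027 in TNF and -0.042 ± 0.013 in TNFSG. There TNF replicate 1 lay below 0, at -0.016. With the core alone TNF had -0.0055 ± 0.029 and TNFSG -0.018 ± 0.016, which overlap.

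**Figure D5:**
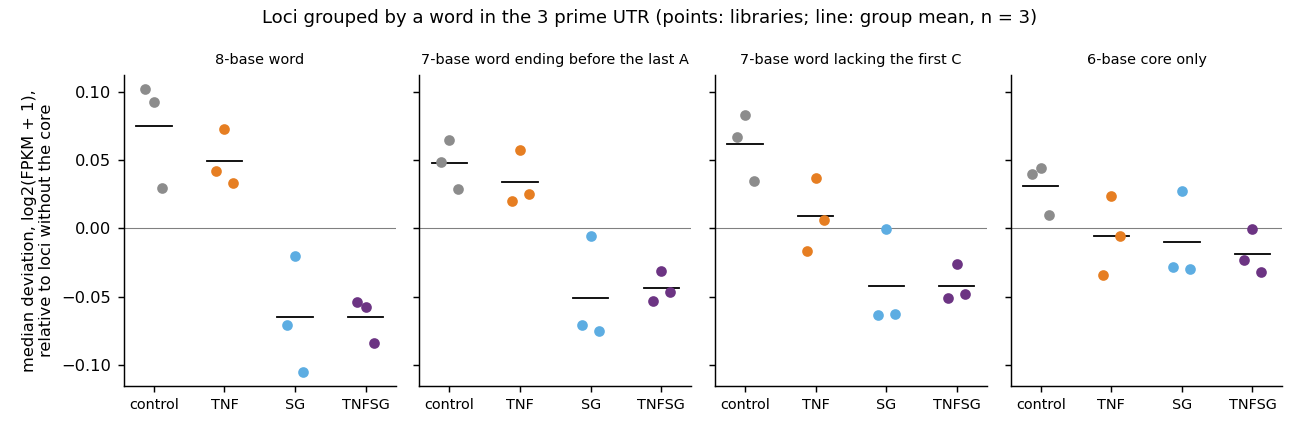
Median deviation of log2(FPKM + 1) from loci without the 6-base core (vertical) in each of the 12 libraries, for loci whose 3′ UTR holds the 8-base word, either 7-base word or only the core (panels), with 3 points per group and a line at the group mean. For the 8-base word all 6 mock libraries lie above 0 and all 6 targeted libraries below it, and for the core alone the groups overlap. No trend on UTR length, GC content or level was removed, and the words were picked from loci lowered in TNFSG.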

How the data were processed

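The deposited table holds FPKM, 1 column for each of 12 K562 libraries in 4 groups of 3. Trizol RNA was read as single 50-base HiSeq reads, per the labels' protocols. The tools named in the submitters' processing notes are Bowtie2 2.2.9, TopHat2 2.0.14 and Cufflinks, on hg38. What annotation the authors used, and which Cufflinks version, is not given in the sources used here. No scaling between libraries beyond FPKM is stated. Reads of overlapping genes and close copies cannot be separated, and 778 of the 12668 tested loci carry several names.

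FPKM was transformed as log2(FPKM + 1). limma 3.58.1 (R 4.3.3) fitted group means to all 12 libraries, with eBayes and its intensity trend. Tests were two-sided, and p-values were adjusted by Benjamini-Hochberg over 12668 loci, with 0.05 as the threshold. Fold changes are on this log2 scale. No count-based test was run. Where low values stepped in whole reads (tolerance 0.03), relative depth and reads of few-read loci were recovered. An exact permutation test of 3 against 3 libraries cannot go below 0.1, so none is given.

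The comparison, the 26 gene lists and the tests were chosen with earlier results of these data known. Named genes are all measured members of the lncRNA locus, Mediator and signal peptidase lists, up to 15 rises and 15 falls of largest change among loci that passed without overlap, up to 3 of lowest p per list, and 5 of lowest p in the interaction, of which the most relevant are printed. CD46, APPL1, MFN1, TDG, UBE2K, CERS2, EZH2, NEK9, DUT, HPRT1, LAMP2, CTSA, DIS3 and the second EDC4 locus were named after their values were seen. All 15 mitochondrially encoded genes were absent from the tested loci.

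On simulated data with 200 of 12668 loci changed in TNFSG against TNF, the model recovered 24.5% at a log2 change of 0.5 and 59% at 1, with 2% and 6.35% of calls false. For the interaction it recovered 5.5% and 47%, with 15.4% and 5.05% of calls false. The simulated noise was normal and independent, with each locus's own mean and spread. It held no whole-read steps and no scaling shift between groups, so these shares are no error rate of the calls reported above.

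The alternatives changed the scale (pseudocounts of 0.1 and 0.5, quantile normalization, median-ratio scaling), the filter (a mean of at least 10 FPKM, or any locus reaching 1 FPKM in 3 libraries), and the model (a replicate block, no trend, only the groups compared, or 1 library dropped). Gene positions and 3′ UTRs (at least 50 bases) came from GENCODE release 29. The software was Python 3.11.15 with numpy 2.4.6, pandas 2.3.3 and matplotlib 3.10.9. A few results were left out and are not reported here.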

Additional observations from a re-analysis of the deposited data

Results flagged for a closer look

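The effect of targeting differed between cells with and without TNF at 3 loci, by the interaction term of the limma model over all 12 libraries. ZNF778 was lower with the targeted transfection under TNF and higher without TNF (interaction adjusted p by limma 0.0416), a difference that did not pass in 11 of 12 fits with a library dropped (up to 0.2003). AC012322.1 was listed at 0 in the TNFSG libraries only (interaction adjusted p by limma 0.0104), and SDCBPP3 was listed at 0 in the SG libraries only (0.000758). The last 2 average 3.17 and 5.58 recovered reads per library. With a library dropped, AC012322.1 did not pass in 3 of 12 fits (without TNF replicate 1, TNFSG replicate 2 or TNFSG replicate 3, up to 0.0628), and SDCBPP3 passed in all 12 (up to 0.00665).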

How the results depend on the processing

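In TNFSG against TNF, 40 loci rose and 67 fell as reported. The counts were 142 and 171 with the replicate block, 19 and 23 with no name or mean filter (32866 loci share the adjustment), 24 and 108 with quantile normalization and 1 and 3 with only the groups compared, where the spread comes from fewer libraries. Leaving out 1 library gave 1 to 26 rises and 8 to 55 falls: 26 and 55 without TNF replicate 1, 9 and 9 without TNF replicate 2, 4 and 9 without TNF replicate 3, 14 and 34 without TNFSG replicate 1, 1 and 9 without TNFSG replicate 2, and 3 and 8 without TNFSG replicate 3. Of the 107 calls, 6 held in all 6 of these fits and 41 were lost in all 6. In SG against control, with 52 rises and 80 falls, the counts were 204 and 222 with the replicate block, 18 and 38 with no filter, 33 and 125 with median-ratio scaling, 21 rises with quantile normalization, and 7 and 4 with only the groups compared. Leaving out 1 library gave 11 to 39 rises and 32 to 57 falls there. The interaction, with 1 locus higher and 2 lower, gave 2 higher with a pseudocount of 0.1, 0.5 or a mean of at least 10 FPKM, 5 lower with a pseudocount of 0.1, and 1 lower with the replicate block, with quantile normalization or without the trend. Leaving out 1 library gave 1 to 3 higher and 0 to 3 lower. The causes of these shifts were not tested. Same-numbered libraries had correlations of deviations between -0.0356 and 0.158, with 1 of 18 over 0.1, so the numbers were not taken as pairs. With the block, 17 named loci that had not passed in TNFSG against TNF passed and 1 that had passed was lost. No named locus that passed changed direction under the alternatives run, and total depth, which limits few-read loci, is unknown.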
